A study of Mus musculus with 6 samples.

Results

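miR-9 is a microRNA of the nervous system whose hairpin gives 2 mature strands, miR-9-5p from its 5′ arm and miR-9-3p from its 3′ arm. Both strands were picked by name from the 1906 mature miRNAs counted in every library. The rule used no measured value, but earlier results of these data were known when it was made. They were followed in 3 libraries of whole mouse oligodendrocytes (Cells) and 3 libraries of the extracellular vesicles that such cultures shed (EVs). All 6 libraries came from primary C57BL/6N oligodendrocytes prepared at embryonic day 14 and grown in Sato medium holding 1% horse serum. The cultures were then washed and kept for 24 h in Sato without serum but with B27, a supplement for neural cells, and the labels name no altered gene and no drug in either group. EVs were harvested at 5 to 6 days in vitro and Cells at 6 days. The vesicle fraction was the pellet of a 100000 g spin of 2 h, after spins at 130 g for 10 min and 10000 g for 30 min, and such a pellet can also carry particles that are not vesicles. The study's title concerns miRNAs that medium supplements bring into such pellets. A library of medium without cells was not analysed here, so miR-9 from the cells and miR-9 from the medium cannot be told apart in the pellet.

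A miRNA hairpin is cut by Drosha and Dicer into a short duplex, of which usually 1 strand is loaded into Argonaute as the guide and the passenger strand is degraded. miR-9 is a known exception, since both strands act as guides in neural tissue: miR-9-5p represses the neuronal gene silencer REST and the progenitor factors Hes1 and Nr2e1, and miR-9-3p, also written miR-9*, represses the REST partner Rcor1 and the chromatin subunit Actl6a. The miRNA is best known from neural progenitors, neurons and astrocytes. In the oligodendrocyte lineage miR-9-5p is known to repress the myelin protein gene Pmp22.

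The mature strands are shown first because they share no seed, the bases 2 to 8 that pair with target messages and that stand in capitals here; the sequences are those of RefSeq.
miR-9-5p: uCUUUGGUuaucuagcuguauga
miR-9-3p: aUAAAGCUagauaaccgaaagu
They are 23 and 22 nt long with 34.8% and 31.8% G and C. No other name among the 1679 mature miRNAs of the sequence table carried either seed, and the count tables held no further miR-9 name. A total of 1622 of the 1906 counted names had a RefSeq mature sequence.

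The same pair of strands is encoded by 3 genes, and their hairpins are printed to show that the copies differ only outside the strands, which stand in capitals.
Mir9-1: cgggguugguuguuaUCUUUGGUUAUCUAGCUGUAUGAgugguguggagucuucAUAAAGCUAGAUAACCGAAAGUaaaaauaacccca
Mir9-2: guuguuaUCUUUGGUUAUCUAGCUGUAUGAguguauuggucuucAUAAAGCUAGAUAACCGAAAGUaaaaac
Mir9-3: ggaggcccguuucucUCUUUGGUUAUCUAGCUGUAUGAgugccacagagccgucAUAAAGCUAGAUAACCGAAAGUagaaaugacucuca
In build GRCm38.p6, which is not the build the reads were mapped to, Mir9-1 lies at chr3:88215598-88215686 on the plus strand, in an intron of the lincRNA Gm3764. Mir9-2 lies at chr13:83738814-83738885 on the plus strand within the lincRNA C130071C03Rik, wholly in exon 4 of 1 of its transcripts. Mir9-3 lies at chr7:79505264-79505353 on the plus strand, in an intron of the lincRNA Mir9-3hg. The stretch between the strands is 16 nt in Mir9-1 and Mir9-3 and 14 nt in Mir9-2. A predicted fold (RNAfold) paired 19 bases of miR-9-5p with bases of miR-9-3p in each copy. Because the copies give identical strands, the counts cannot be divided among the 3 genes.

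Reads from the opposite strand of these loci form a further limit on identity, and the antisense strands are printed for that reason, with their seeds in capitals.
miR-9b-5p: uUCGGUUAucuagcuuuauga
miR-9b-3p: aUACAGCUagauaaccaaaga
Counted from the 5′ end, miR-9-3p and miR-9b-3p differ by A4C, G17A, A20G and G21A, with the miR-9-3p base first. miR-9-5p and miR-9b-5p, set 2 bases apart, differ by U5C and G18U, with positions counted on miR-9-5p. These differences describe likeness in sequence, not position. By position miR-9b-3p lies opposite miR-9-5p, and miR-9b-5p lies opposite miR-9-3p. Counting by position without strand would thus add reads of miR-9b-3p to miR-9-5p and reads of miR-9b-5p to miR-9-3p. Neither antisense name is in the count tables, and whether strand was used in counting is not given in the sources used here.

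Total counts were 313766 to 689475 in the EV libraries and 126910 to 202358 in the cell libraries, and levels are given as CPM, each library being brought to the same sum. A single read in an EV library stood for 1.45 to 3.19 CPM, and in a cell library for 4.94 to 7.88 CPM. miR-9-3p, the rarer strand, had at least 2927 reads in every library, and counting error is small beside the spread between libraries. The labels number the replicates without saying that they were independent cultures, and a p-value here speaks only of the spread between these 6 libraries. The oligodendrocyte label was set against marker miRNAs. miR-219a-2-3p stood at 23529 ± 5180 CPM (SD, n = 3) in Cells and 12816 ± 1457 CPM in EVs. From the other arm, miR-219a-5p stood at 3473 ± 246 CPM in Cells and 8310 ± 2398 CPM in EVs. Both miR-219b strands had 0 reads in all cell libraries, which allows up to 3 reads, or 14.8 to 23.6 CPM, in each. The oligodendrocyte markers summed to 2.93% to 3.97% of counts in Cells and 2.27% to 2.55% in EVs, and of the 4 tested 1 was higher and 3 were lower in EVs by edgeR, beside 28.6% higher and 28.9% lower of all 336 miRNAs tested. The higher one, miR-219a-5p, lost its call with the replicate block and without EVs 2, Cells 2 or Cells 3, and miR-338-3p, among the lower ones, lost its call on library size alone. Marker miRNAs of other cell types were counted too. Neuron markers summed to 1.05% to 1.76% of counts in Cells and 2.85% to 3.58% in EVs, and of the 7 tested 4 were higher and 0 lower in EVs. Of those 4, miR-124-5p and miR-488-3p lost their calls in 10 of 15 alternatives each, miR-137-3p in 3 and miR-124-3p in 2. Astrocyte-associated miRNAs summed to 0.467% to 0.619% in Cells and 0.571% to 0.913% in EVs, with 3 of 6 higher and 2 lower. The higher ones were miR-29a-3p, miR-29c-3p and miR-143-3p, and the lower ones miR-23a-3p and miR-23b-3p. miR-143-3p, which is not particular to astrocytes, averaged 569 CPM in Cells and 2785 CPM in EVs. miR-23b-3p went the other way, from 2612 CPM in Cells to 556 CPM in EVs. Microglia and myeloid markers summed to 0.159% to 0.457% in Cells and 0.0612% to 0.194% in EVs, with 0 of 5 higher and 4 lower. Blood and liver markers summed to 0.0701% to 0.0820% in Cells and 1.19% to 1.68% in EVs, with 5 of 5 higher, and among them miR-144-5p had 0 reads in all cell libraries. The part of these cell types in the miR-9 results below was not tested, and in bulk libraries fewer cells of a type and less RNA per cell cannot be told apart.

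Each of the 6 libraries had miR-9-5p as its top miRNA, but its share of the counts was lower in EVs than in Cells. It made up 9.07% (95% exact binomial interval 8.99% to 9.16%), 12.5% (12.4% to 12.7%) and 8.85% (8.79% to 8.92%) of the counts in EVs 1, 2 and 3. It made up 19.3% (19.1% to 19.5%), 17.97% (17.8% to 18.2%) and 16.6% (16.4% to 16.8%) in Cells 1, 2 and 3. Every cell library was above every EV library, and EVs 2 was the vesicle library nearest to the cells; the intervals cover counting error only. The means were 10.2% ± 2.07 in EVs and 17.95% ± 1.35 in Cells (SD, n = 3 each), a difference of -7.79 percentage points (exact permutation test, two-sided, p = 0.1, the smallest that 3 against 3 allows). In CPM the means were 101575 ± 20711 and 179522 ± 13468, a ratio of 0.566.

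miR-9-5p was lower in EVs by edgeR's quasi-likelihood test, which scales libraries by the trimmed mean of M-values (TMM): its log2 fold change of EVs over Cells was -1.28 (SE 0.21), with a Benjamini-Hochberg (BH) adjusted p of 0.00087 over 336 miRNAs. This call was not unusual, since 28.9% of the tested miRNAs were called lower in EVs, 28.6% higher, and 57.4% in either direction. It passed the test in all 15 alternative fits, at log2 fold changes from -1.62 to -0.82 and adjusted p from 4.7e-08 to 0.00792. With the blood and liver miRNAs left out of the totals, miR-9-5p made up 10.3% ± 2.07 in EVs and 17.97% ± 1.35 in Cells.

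miR-9-5p also stood farther above the other miRNAs in Cells than in EVs. In Cells it was 3.48, 3.40 and 3.19 times as abundant as the next miRNA, which was let-7c-5p in Cells 1 and let-7f-5p in Cells 2 and 3, both members of the let-7 family of differentiated cells. In EVs it was 1.15, 1.39 and 1.31 times as abundant as the next, in each case miR-128-3p, a miRNA enriched in neurons. The order at the top of the EV list is less firm as a result, since the CPM range of miR-128-3p (78838 ± 11196) overlapped that of miR-9-5p. In Cells no other miRNA reached the range of miR-9-5p.

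miR-9-3p, the strand often taken as the passenger, made up a larger share of counts in EVs than in Cells. Its levels were 37480, 35801 and 33971 CPM in EVs 1, 2 and 3 and 18740, 32157 and 25835 CPM in Cells 1, 2 and 3. The groups did not overlap, but Cells 2 came close to EVs 3, and the cells spread more widely than the vesicles. CPM ranges failed to overlap for 67.6% of the tested miRNAs. The means were 35750 ± 1755 CPM, or 3.58% ± 0.176 of counts, in EVs and 25577 ± 6712 CPM, or 2.56% ± 0.671, in Cells (SD, n = 3 each; exact permutation test, two-sided, p = 0.1).

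Whether miR-9-3p differs between EVs and Cells turned on the scaling of the libraries. With TMM its log2 fold change was 0.04 (SE 0.17, edgeR, BH-adjusted p = 0.879), and without TMM, on library size alone, it was 0.48 (SE 0.19, adjusted p = 0.0419) and was called higher. Across all 15 alternatives its adjusted p ran from 0.0419 to 0.992, and the estimate fell below 0 in 7 of them, the lowest being -0.13. The TMM factors were 1.08 to 1.24 in EVs and 0.760 to 0.904 in Cells, and leaving them out moved the median over the 336 miRNAs from 0.06 to 0.54 in log2 fold change. The estimates for miR-9-3p lay close to those medians under both scalings, and no direction is given for it.

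**Figure D1:**
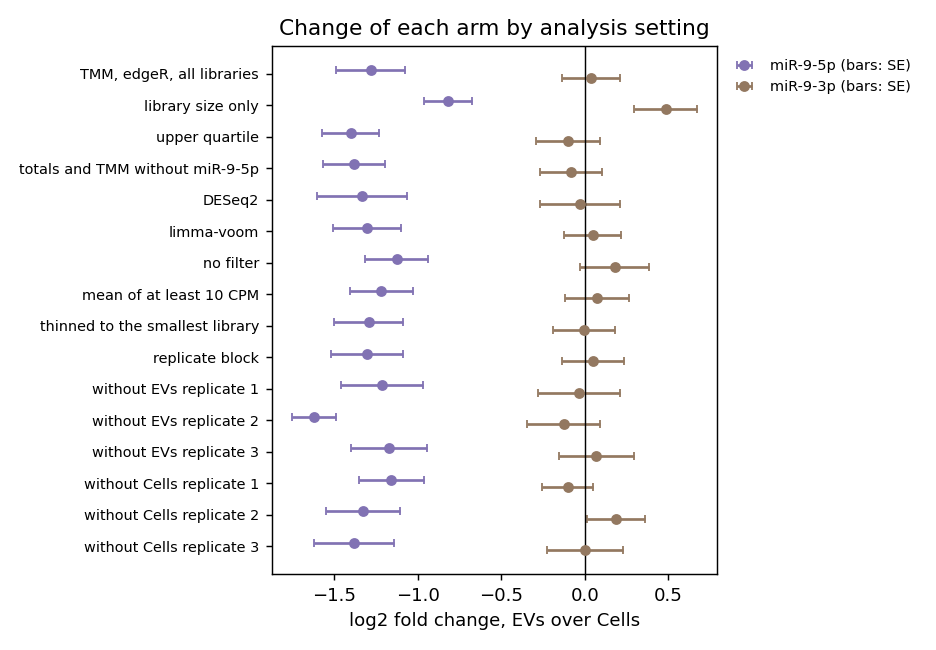
Log2 fold change of EVs over Cells for miR-9-5p and miR-9-3p (horizontal axis) under TMM with edgeR and each of the 15 alternatives (vertical axis), with bars for the SE. miR-9-5p stays between -1.62 and -0.82, and miR-9-3p runs from -0.13 to 0.48 on both sides of 0.

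miR-9-3p ranked 3, 4 and 5 among all miRNAs in EVs 1, 2 and 3 and 13, 9 and 11 in Cells 1, 2 and 3. By group mean it was number 4 in EVs, where its CPM range overlapped those of miR-181a-5p (38800 CPM), miR-30a-5p (31194 CPM) and let-7c-5p (29884 CPM). It did not overlap the next in order, miR-181b-5p (29014 CPM). In Cells it was number 10 and overlapped all 5 of its nearest neighbours, from miR-128-3p (31365 CPM) down to miR-125b-5p (22429 CPM). The 2 strands together made up 13.7% ± 2.09 of the counts in EVs and 20.5% ± 1.15 in Cells.

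**Figure D2:**
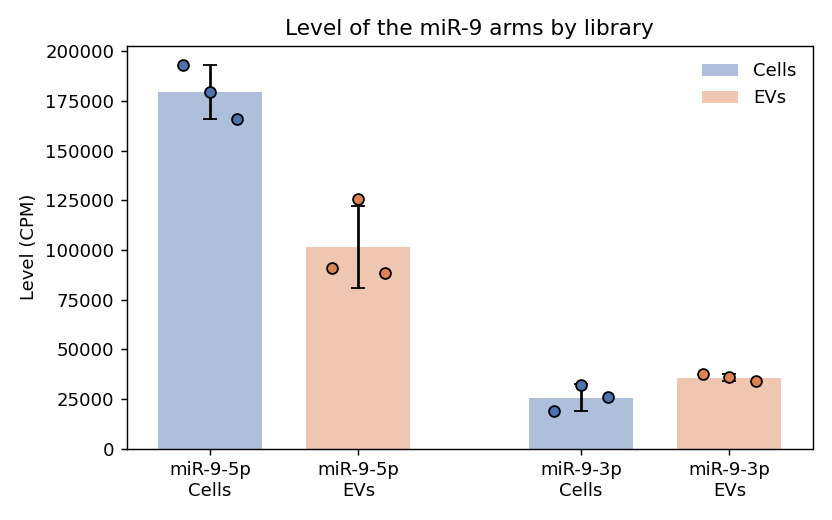
Level of miR-9-5p and miR-9-3p by group, in CPM on the vertical axis, with a point for each library, a bar for the group mean and an error bar for its SD (n = 3). miR-9-5p lies between 88533 and 125457 CPM in EVs and between 165973 and 192907 CPM in Cells, and miR-9-3p between 33971 and 37480 CPM in EVs and between 18740 and 32157 CPM in Cells.

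The balance between the strands can be read within a library, with no scaling between libraries. EVs 1, 2 and 3 held 2.42, 3.50 and 2.61 reads of miR-9-5p per read of miR-9-3p. Cells 1, 2 and 3 held 10.3, 5.59 and 6.42. Every EV library had a lower ratio than every cell library, and Cells 1 stood highest. Such separation was not particular to miR-9. Among the 10 hairpins with the most abundant rarer strand, described below, only miR-708, miR-384 and miR-129 had ratios that overlapped between the groups. The share over all tested hairpins was not counted. Put as a share of the reads of both strands, miR-9-3p held 29.2% (95% exact binomial interval 28.9% to 29.6%), 22.2% (21.8% to 22.6%) and 27.7% (27.4% to 28.0%) in EVs 1, 2 and 3. In Cells 1, 2 and 3 it held 8.85% (8.55% to 9.17%), 15.2% (14.8% to 15.6%) and 13.5% (13.1% to 13.8%), so that the lowest vesicle share was above the highest cell share. The means of that share were 26.4% ± 3.70 in EVs and 12.5% ± 3.27 in Cells (SD, n = 3 each; exact permutation test, two-sided, p = 0.1).

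On the log2 scale the ratio of miR-9-5p to miR-9-3p averaged 1.49 ± 0.28 in EVs and 2.84 ± 0.46 in Cells, a change of -1.35 (SE 0.43). This passed limma's moderated test over 187 hairpins with a BH-adjusted p of 0.0410, with group as the only term. The change ranged from -1.53 to -1.09 over 12 alternatives, but the adjusted p ranged from 0.00051 to 0.133 and passed in 5 of them. With the replicate number as a block the adjusted p was 0.0589, and with counts thinned to the smallest library it was 0.0612. Of the fits that left out 1 library, the one without Cells 2 kept the call at 0.0495. The call was lost without EVs 1 (0.132), EVs 2 (0.0506), EVs 3 (0.106), Cells 1 (0.0754) or Cells 3 (0.0729).

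Libraries with the same replicate number gave the same direction in each of the 3 pairs. Any pairing would do so, because the groups did not overlap in the CPM of either strand or in their ratio. The agreement therefore adds no support, and these CPM carry no TMM. The log2 ratio of EVs to Cells in CPM was -1.09, -0.52 and -0.91 for miR-9-5p in pairs 1, 2 and 3. For miR-9-3p it was 1.00, 0.15 and 0.39. The difference between the strands had the same sign in every pair, being largest in pair 1 and smallest in pair 2, with differences in log2 ratio of -2.09, -0.67 and -1.30.

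**Figure D3:**
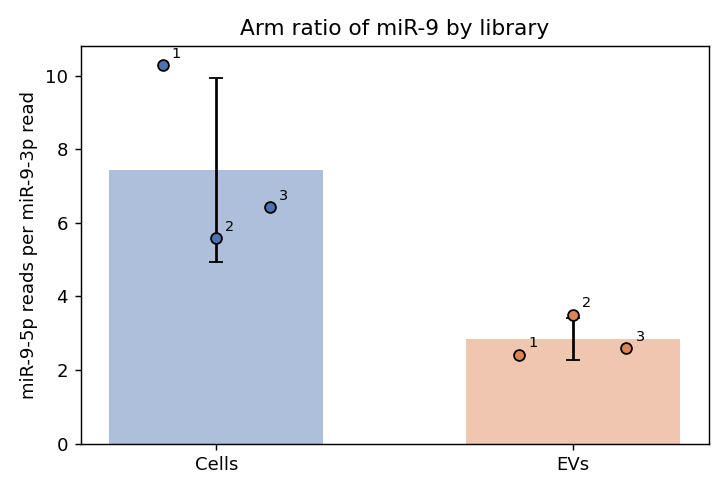
Reads of miR-9-5p per read of miR-9-3p on the vertical axis, with a point for each library labelled by its replicate number, a bar for the group mean and an error bar for its SD (n = 3). The EV libraries sit between 2.42 and 3.50, all below the cell libraries, which sit between 5.59 and 10.3.

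miR-9 was set beside the other hairpins with 10 or more counts over both arms together in every library. Of the 187 hairpins tested, 67 were called by limma: 43 moved towards the 3p strand in EVs, as miR-9 did, which is 23.0% of those tested, and 24 moved towards the 5p strand. The number called towards 3p was 24 without EVs 1, and the number towards 5p was 12 without EVs 1 and 15 without EVs 3. Many of these hairpins had little or no signal from 1 arm: 11 had no read of it in any library, of which 6 were called, and 66 had 0 reads of an arm in at least 1 library, of which 27 were called. With 0 reads of an arm the ratio follows the count of the other arm and the 0.5 added, and so the depth of the library, and it does not measure arm balance. The nearer comparison for miR-9 is with the 53 hairpins that had at least 10 counts of each arm in every library. Among those, 15 were called towards 3p in EVs, miR-9 included, which is 28.3%, and 9 towards 5p. In that fit the adjusted p of miR-9 was 0.00695 and ranked 15, and 19 of the 53 hairpins changed more than miR-9 in size, 11 of them towards 3p. The median change was 0.003 over the 53 hairpins and -0.46 over all 187.

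miR-9 had the most abundant rarer strand of all hairpins tested. The less abundant strand of miR-9 averaged 30664 CPM over the 6 libraries, 5.20 times that of the next hairpin, miR-219a, at 5891 CPM. Among the 10 hairpins with the most abundant rarer strand, miR-9 and 2 more were called towards 3p in EVs, 2 were called towards 5p, and 5 were not called. let-7d moved towards 3p by -2.76 in log2 ratio (limma, BH-adjusted p = 0.00805), and miR-338, an oligodendrocyte miRNA, by -1.22 (adjusted p = 0.0496), a call lost in 8 of 12 alternatives. miR-219a, which drives oligodendrocyte differentiation, moved the other way by 2.08 (adjusted p = 0.00805), as did miR-30e by 1.88 (adjusted p = 0.00897). The ratios of miR-30a (0.73), miR-708 (0.73), miR-384 (0.17), miR-181a (0.62) and miR-129 (0.48) did not pass the test, at adjusted p from 0.202 to 0.763. Only for miR-30a did an alternative, edgeR on the arm counts, make a call (0.71, adjusted p = 0.0301).

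**Figure D4:**
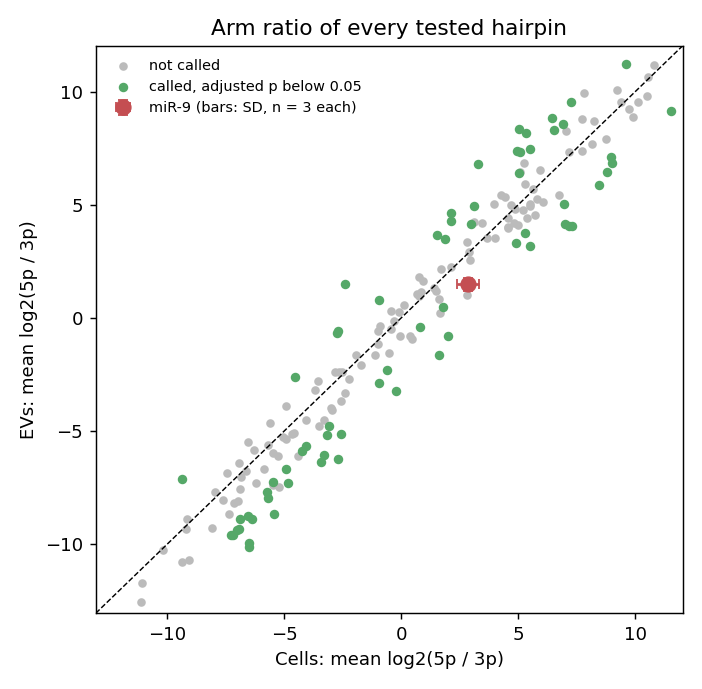
Mean log2 ratio of 5p to 3p reads in EVs (vertical axis) against that in Cells (horizontal axis), with 1 point for each of the 187 hairpins tested, those with few reads of an arm included, the called ones in green, miR-9 in red with SD bars (n = 3 each) and a dashed line of equal ratio. miR-9, at 2.84 in Cells and 1.49 in EVs, lies below the line among the 43 hairpins called towards 3p in EVs.

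The level of miR-9 was also read against 4 other neural miRNAs of the same library: miR-124-3p and miR-128-3p of neurons and miR-219a-5p and miR-338-3p of oligodendrocytes. miR-9-5p was lower in EVs relative to each of them, with no overlap between groups. The 4 miRNAs changed as well by edgeR: miR-124-3p (0.97), miR-128-3p (0.84) and miR-219a-5p (0.81) were called higher in EVs and miR-338-3p (-0.80) lower. Each ratio therefore holds the change of both miRNAs and is not the change of miR-9-5p alone. Per read of miR-124-3p there were 3.26, 4.66 and 4.40 reads of miR-9-5p in EVs and 31.8, 13.8 and 17.9 in Cells, a log2 difference of -2.29. Per read of miR-219a-5p there were 12.1, 11.4 and 13.8 in EVs and 52.8, 56.2 and 46.4 in Cells, a log2 difference of -2.06. The difference against miR-128-3p was -2.22. It was least against miR-338-3p, at -0.48, where EVs held 52.0, 60.1 and 55.7 reads of miR-9-5p per read and Cells 91.4, 76.9 and 67.5.

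miR-9-3p took no common direction against the same 4 miRNAs, whose own changes between EVs and Cells, given above, also enter these ratios. Per read of miR-124-3p it was lower in EVs, with 1.35, 1.33 and 1.69 reads in EVs and 3.09, 2.47 and 2.78 in Cells, a log2 difference of -0.94. Per read of miR-338-3p it was higher in EVs, with 21.5, 17.1 and 21.4 reads against 8.88, 13.8 and 10.5 in Cells, a log2 difference of 0.87. Neither pair of groups overlapped. Against miR-128-3p (-0.86, exact permutation p = 0.3) and miR-219a-5p (-0.71, exact permutation p = 0.2) the EV and cell libraries overlapped. For the other 6 of these 8 ratios the two-sided exact permutation p was 0.1, or 0.133 after BH adjustment over the 8, so no ratio can pass a threshold at this number of libraries. All 8 kept their direction when any 1 library was left out.

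**Figure D5:**
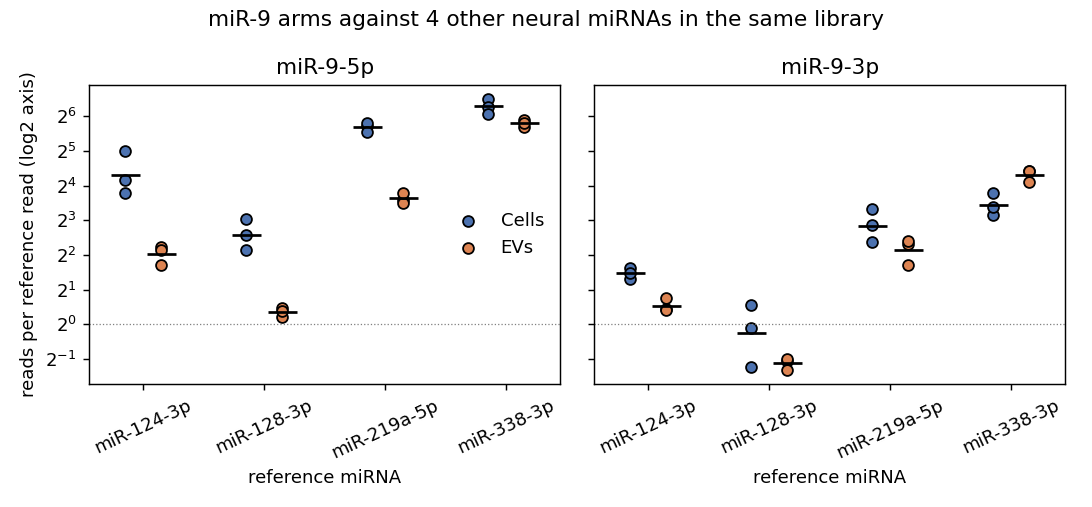
Reads of miR-9-5p (left) and miR-9-3p (right) per read of each of 4 other neural miRNAs, on a log2 axis, with a point for each library and a short line for the group's mean on the log scale; the dotted line marks equal reads. For miR-9-5p the EV points lie below the cell points at all 4 miRNAs, and for miR-9-3p they lie below at miR-124-3p, above at miR-338-3p and overlap at miR-128-3p and miR-219a-5p.

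Other brain-enriched miRNAs did not move as a block with miR-9-5p. From a list of 21 that leaves out miR-9, 20 were tested, of which 8 were called higher in EVs, 5 lower and 7 neither, beside 28.6% higher and 28.9% lower among all tested miRNAs; their median log2 fold change was 0.16, beside 0.06 over all tested miRNAs. Their summed level was 13.0% to 16.0% of the counts in EVs and 6.66% to 7.85% in Cells, the reverse order of miR-9-5p. Most of the sum in EVs was miR-128-3p (mean 78838 CPM) and miR-124-3p (mean 24954 CPM), and these shares carry no TMM. The higher ones included miR-124-3p (0.97, edgeR, BH-adjusted p = 0.00832), miR-128-3p (0.84, adjusted p = 0.0348) and miR-138-5p (0.73, adjusted p = 0.00482). The first lost its call without EVs 1 or EVs 2, and the second without EVs 1, EVs 2, Cells 2 or Cells 3. The lower ones, with miR-9-5p, were miR-7a-5p (-1.11), miR-7b-5p (-1.14), miR-218-5p (-0.81), miR-132-5p (-1.14) and miR-212-5p (-2.08), at adjusted p from 0.0013 to 0.0104. On library size alone miR-218-5p stood at -0.35 (edgeR, BH-adjusted p = 0.108) and was not called; the calls of the other 4 held in every alternative that gave a value. The number called higher was 3 without EVs 1, 4 without EVs 2, 5 without Cells 2 and 4 without Cells 3.

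Both strands of miR-124 in the list were called higher in EVs (miR-124-3p 0.97, miR-124-5p 0.84), the 5p call being lost in 10 of 15 alternatives. The strand ratio of miR-124 did not pass the test (-0.20, limma, BH-adjusted p = 0.723). The list also held miR-132 and miR-212 with both strands called, which are induced by neuronal activity and share a locus. In miR-132 and miR-212 the 5p strands were lower in EVs, as in miR-9, while miR-132-3p (0.84) and miR-212-3p (1.01) were called higher. No direction is given for miR-9-3p. The 5p strand of miR-132 was its rarer strand, with 0.092 to 0.131 reads per 3p read in Cells, whereas that of miR-9 was its more abundant one. For miR-212 this ratio was 0.467 to 2.03 in Cells. The miR-132 and miR-212 hairpins were singled out after their values were seen. The log2 ratio of 5p to 3p changed by -1.98 in miR-132 and by -3.00 in miR-212 (limma, BH-adjusted p = 0.00805 for both), and both calls held in all 12 alternatives.

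The miRNAs whose level ran most like that of each miR-9 strand were not the same. Likeness was Pearson's r of log2 CPM over the 6 libraries, among the 254 miRNAs that averaged 100 CPM or more; the 6 points fall into the EV and cell groups and share library totals, so r is a description. miR-9-5p was most like miR-99b-5p (r = 0.966), miR-335-3p (0.962), miR-130b-5p (0.952), miR-132-5p (0.951) and miR-181a-1-3p (0.942). All of these were called lower in EVs, which largely follows from choosing them by likeness to miR-9-5p. miR-9-5p was least like miR-130a-3p (-0.988), miR-130b-3p (-0.983) and miR-93-5p (-0.981). miR-9-3p was most like miR-30c-5p (0.970), miR-671-5p (0.962), miR-344c-3p (0.953), miR-124-3p (0.950) and miR-335-5p (0.948). Of these, miR-344c-3p and miR-124-3p were called higher in EVs and the rest were not called. miR-9-3p was least like miR-669c-5p (-0.918), miR-5099 (-0.910) and miR-425-5p (-0.903). Between the miR-9 strands themselves r was -0.737.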

How the data were processed

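Small RNA of 15 to 200 nt from the EV pellets and from the cells was ligated to adapters with 4 random bases each, amplified over 14 PCR cycles and read for 51 cycles, per the labels' protocols. For each of the 6 libraries the authors deposited 1 table of read counts, unscaled whole numbers by mature miRNA. The build was NCBIM37 (mm9), and the tools were featureCounts 1.4.6-p4 from Subread, Bowtie 0.12.8, cutadapt 1.7.1 and bcl2fastq 1.8.4, per the submitters' processing notes. Not given in the sources used here are the settings, the treatment of reads with several matches, the use of strand, the annotation release and any use of the random bases against PCR duplicates; intervals therefore cover counting error only.

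The labels gave the groups and replicate numbers. The members and lists were chosen with earlier results of these data known. Levels were tested with edgeR 4.0.16 (R 4.3.3; TMM, filterByExpr at a minimum count of 10, group as the only term, BH over 336 miRNAs, threshold 0.05). The ratio of strands was tested with limma 3.58.1 on log2 ratios with 0.5 added to each count, for 187 hairpins whose strands together had 10 or more counts in every library; copies with the same number and letter were summed. Shares and ratios to other miRNAs were compared by exact permutation tests. CPM values use total counts without TMM, and likeness used a prior count of 2. Beyond the miR-9 strands, the text names the 10 hairpins with the most abundant rarer strand, the 5 miRNAs most like and 3 least like each strand, marker lists and called members of the brain-enriched list. Sequences were joined by miRNA name and folded with RNAfold 2.7.2; hosts are from GENCODE on GRCm38. Within a group, the chi-square statistic between libraries was 7.73 to 37.5 times its degrees of freedom, so none was a repeat deposit.

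Deviations from the group means were positively but weakly correlated between EVs and Cells of the same number (r = 0.115, 0.106 and 0.256). For different numbers r was -0.148 to 0.021. Deviations within a group cancel out, so these values are not independent of each other. The numbers were treated as a possible pairing, which entered the tests only as the replicate block. The main fits and the permutation tests left it out. With the replicate block the miR-9 strand ratio lost its call (limma, BH-adjusted p = 0.0589). The scripts were tested on simulated counts. Alternatives covered scaling, DESeq2 1.42.0, limma-voom, filters, thinning, the replicate block and each library left out.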

Additional observations from a re-analysis of the deposited data

How the results depend on the processing

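The lower level of miR-9-5p in EVs kept its direction and its call under all 15 alternatives, whereas the estimate for miR-9-3p changed sign in 7. It was -0.10 with upper-quartile scaling, -0.082 with totals and TMM computed without miR-9-5p, -0.029 with DESeq2, -0.0045 with thinned counts, and -0.13 to 0.19 when 1 library was left out (below 0 without EVs 1, -0.03, EVs 2, -0.13, or Cells 1, -0.10); on library size alone it was 0.48 and called. The cause was not tested. The ratio of the strands kept its direction in 12 of 12 alternatives and lost its call in 7: it was -1.34 with thinned counts, -1.35 with the replicate block and -1.53 to -1.09 with 1 library left out. The replicate block changed no other miR-9 call, with miR-9-5p at -1.30 (edgeR, BH-adjusted p = 0.00262). On library size alone 148 miRNAs were called higher in EVs and 60 lower, against 96 and 97 with TMM. Hairpins called towards 3p numbered 15 of the 53 with at least 10 counts of each strand (28.3%, median change 0.003), beside 43 of 187 (23.0%) in the main fit. They numbered 27 with thinned counts and 24 to 43 with 1 library left out, lowest without EVs 1. Those called towards 5p numbered 9 of the 53, beside 24 of 187. They numbered 12 with thinned counts and 12 to 21 with 1 library left out, with 12 without EVs 1 and 15 without EVs 3. The number of hairpins tested can differ between these fits, so the counts are not shares. miR-671-5p changed sign with upper-quartile scaling (-0.047), without miR-9-5p in the totals (-0.030) and without EVs 1 or Cells 1 (range with 1 library left out -0.058 to 0.18); the strand ratio of miR-129 did so without Cells 2 (range -0.064 to 1.27). Depth limits the ratio tests: 53 of 187 hairpins had 10 counts of each strand in every library.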
